A study of Mus musculus with 30 samples.

Results

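The 10 imprinted genes H19, Igf2, Igf2r, Zrsr1, Meg3, Grb10, Ndn, Gnas, Peg3 and Plagl1 were followed in RNA-sequencing libraries of stem and progenitor cells sorted from mouse bone marrow. They were taken by gene symbol, and all 10 were found among the 55471 genes of each of 2 count tables, one of hematopoietic stem cells (HSCs) and one of multipotent progenitors (MPPs), their first descendants. The set was chosen by the lower counts of H19, Igf2r and Zrsr1 in treated HSCs, so the members are described in HSCs without a test and are tested in MPPs only; genes outside the set are tested in both. HSCs of C57BL/6 mice given phosphate-buffered saline (PBS, 7 libraries) were set against HSCs of C57BL/6 mice given MTP10-HDL (6 libraries), a nanoparticle built from high-density lipoprotein and loaded with a muramyl peptide, a fragment of bacterial cell wall. MPPs of C57BL/6 mice came as 2 PBS libraries and 3 MTP10-HDL libraries, after 3 injections within 5 days and bone marrow collection on the following day. That schedule, the depletion of lineage-positive cells and the sort come from the labels of the MPP samples; for HSCs they were not given in the sources used here. Each library is a pool of 4 mice, so the spread between libraries is a spread between pools; their age and sex were likewise not given.

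An imprinted gene is transcribed mainly from the copy inherited from 1 parent, because DNA methylation set in the egg or the sperm marks a control region near it. H19, a maternally expressed long non-coding RNA, shares such a region with Igf2, the paternally expressed growth factor beside it. Many imprinted genes act on fetal growth and are expressed together in growing tissues and in somatic stem cells, including long-term HSCs, where the H19 and Igf2 region is known for its part in keeping stem cells quiescent.

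The members lie on 6 autosomes of the mouse genome build mm10 (positions from RefSeq, assembly GRCm38.p6). H19 (ENSMUSG00000000031, chr7:142575530-142578146) and Igf2 (chr7:142650768-142666816) are separated by 72622 bases. Igf2r (ENSMUSG00000023830, chr17:12682406-12769706) overlaps the antisense gene Airn (chr17:12741311-12859884) over 28396 bases, and Zrsr1 (ENSMUSG00000044068, chr11:22972005-22976496) lies wholly inside Commd1. Since the strand setting of the counting was not given, reads of Igf2r and Airn, and of Zrsr1 and Commd1, may not have been told apart in full. The H19 transcript is also the precursor of microRNA miR-675, whose 2 mature arms, as listed by RefSeq, are shown with the seed (bases 2 to 8) in capitals; mature microRNAs were not measured in these libraries.
mmu-miR-675-5p: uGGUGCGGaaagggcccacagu
mmu-miR-675-3p: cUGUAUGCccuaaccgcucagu

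RefSeq start-site windows were given for 9 of the 10 members, all but H19. Of these, 3 are shown over the 250 bases before the start, 5′ to 3′, with each CG dinucleotide, the site of DNA methylation, in capitals: those of Igf2r (chr17:12769707-12769956, minus strand) and Zrsr1 (chr11:22971755-22972004, plus strand), the pair whose treated and PBS libraries did not overlap in HSCs, and the upstream window of Grb10 (chr11:12037421-12037670, minus strand), the only member with a fold change above 0 in HSCs.
Igf2r: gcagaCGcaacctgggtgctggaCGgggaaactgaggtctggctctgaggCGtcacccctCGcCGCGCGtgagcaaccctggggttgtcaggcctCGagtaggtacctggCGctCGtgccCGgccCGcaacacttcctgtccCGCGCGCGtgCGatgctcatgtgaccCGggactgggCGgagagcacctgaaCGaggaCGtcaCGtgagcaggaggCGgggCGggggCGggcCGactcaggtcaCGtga
Zrsr1: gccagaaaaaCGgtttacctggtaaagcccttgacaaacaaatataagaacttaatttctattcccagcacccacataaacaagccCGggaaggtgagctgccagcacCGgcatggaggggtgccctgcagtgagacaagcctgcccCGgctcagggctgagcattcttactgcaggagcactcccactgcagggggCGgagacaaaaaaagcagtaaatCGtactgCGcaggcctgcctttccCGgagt
Grb10: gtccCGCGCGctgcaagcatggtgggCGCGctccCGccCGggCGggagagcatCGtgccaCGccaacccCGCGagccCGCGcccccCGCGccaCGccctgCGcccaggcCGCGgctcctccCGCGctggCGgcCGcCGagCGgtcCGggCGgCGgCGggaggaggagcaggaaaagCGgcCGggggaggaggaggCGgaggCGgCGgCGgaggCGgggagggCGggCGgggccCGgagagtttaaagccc
The Igf2r window holds 27 CG dinucleotides, the Zrsr1 window 8 and this Grb10 window 40. Over all 32851 windows of the same length the median was 6, and 8.56%, 43.0% and 1.31% held at least as many. TGCCGC, the motif of the imprint-protecting zinc finger protein ZFP57, was searched on both strands and was found once in the Plagl1 window and once in 1 of the 2 Meg3 windows, against 8.68% of all windows. GGGGCCCC, a palindrome searched in the same way, was found in the Peg3 window alone among those of the members, against 0.889% of all windows. So the windows of Igf2r and Zrsr1 held neither motif and differed in CG content.

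HSC libraries held 4064155 to 7879858 counts and MPP libraries 11252479 to 32769369, with different kits, so levels are compared within a table only. Levels are given as CPM, counts scaled to library size with TMM, a correction for RNA composition, and are not compared between genes because no transcript lengths were used. Immunoglobulin transcripts, a sign of B-lineage RNA, took 19.8% of counts in HSC PBS library 2 against 0.271% to 7.83% in the other PBS libraries and 0.374% to 4.90% in treated HSCs. Neutrophil markers in HSC libraries, 6 genes, summed to 78.7 to 3021 CPM with PBS and to 456 to 4416 CPM with MTP10-HDL. The highest sums were in PBS 5 and MTP10-HDL 1, and all 6 genes had a fitted fold change above 0. Monocyte and macrophage markers, 5 genes, summed to 89.6 to 663 CPM and to 123 to 1216 CPM. In the HSC libraries the stem cell markers Procr, Slamf1, Mecom and Hlf were present in both groups, and the summed level of 10 HSC markers ran from 1470 to 2955 CPM with PBS and from 1521 to 2349 CPM with MTP10-HDL. In MPPs the same 10 markers sat at 1627 and 1768 CPM with PBS and at 1015 to 1226 CPM with MTP10-HDL, whereas 5 MPP markers (Flt3, Cd34, Cd48, Satb1, Dntt) went from 2102 and 2734 CPM to 3487 to 4170 CPM. The treated and PBS MPP libraries also stood apart in 7 erythroid markers (45.8 and 50.8 CPM with PBS, 17.8 to 38.7 CPM treated), in 5 monocyte and macrophage markers (319 and 329 CPM, 171 to 214 CPM), in immunoglobulin (6.20% and 12.5%, 2.76% to 4.26%) and in ribosomal RNA (1.26% and 1.47%, 0.508% to 0.915%). Ly6c2 made up most of the monocyte and macrophage sum, with means of 268 CPM with PBS and 139 CPM treated. Of those 5 genes 3 were lower and 2 higher, the higher being Csf1r (18.9 and 26.8 CPM) and Adgre1 (3.53 and 3.70 CPM). Stroma and endothelium markers, 9 genes, stood apart with the treated sums higher (41.1 and 48.9 CPM, 54.3 to 78.5 CPM). Of the 6 tested, 5 were lower and 1 higher, Pdgfrb (means of 31.7 and 63.8 CPM). At this number of libraries 24.3% of all genes tested had groups that did not overlap. The part of all these differences in the values below was not tested.

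In HSCs the receptor gene Igf2r and the splicing factor gene Zrsr1 had every treated library below every PBS library, and H19 was below the PBS median in all 6 treated libraries. Fitted fold changes were below 0 for 9 of the 10 members and above 0 for Grb10, while 52.3% of all 16631 genes tested were below 0; without PBS 5 and PBS 7, the libraries with the fewest counts, 5 of the 10 were below 0. These values chose the members, and nothing is read from them. In such bulk libraries fewer cells that express a gene and less of its RNA per cell cannot be told apart. No gene of the whole table passed a false discovery rate (FDR) of 0.05 in edgeR's quasi-likelihood test, where 1469 (8.83%) had an unadjusted p under 0.05; limma voom called none and DESeq2 called 85.

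**Figure D1:**
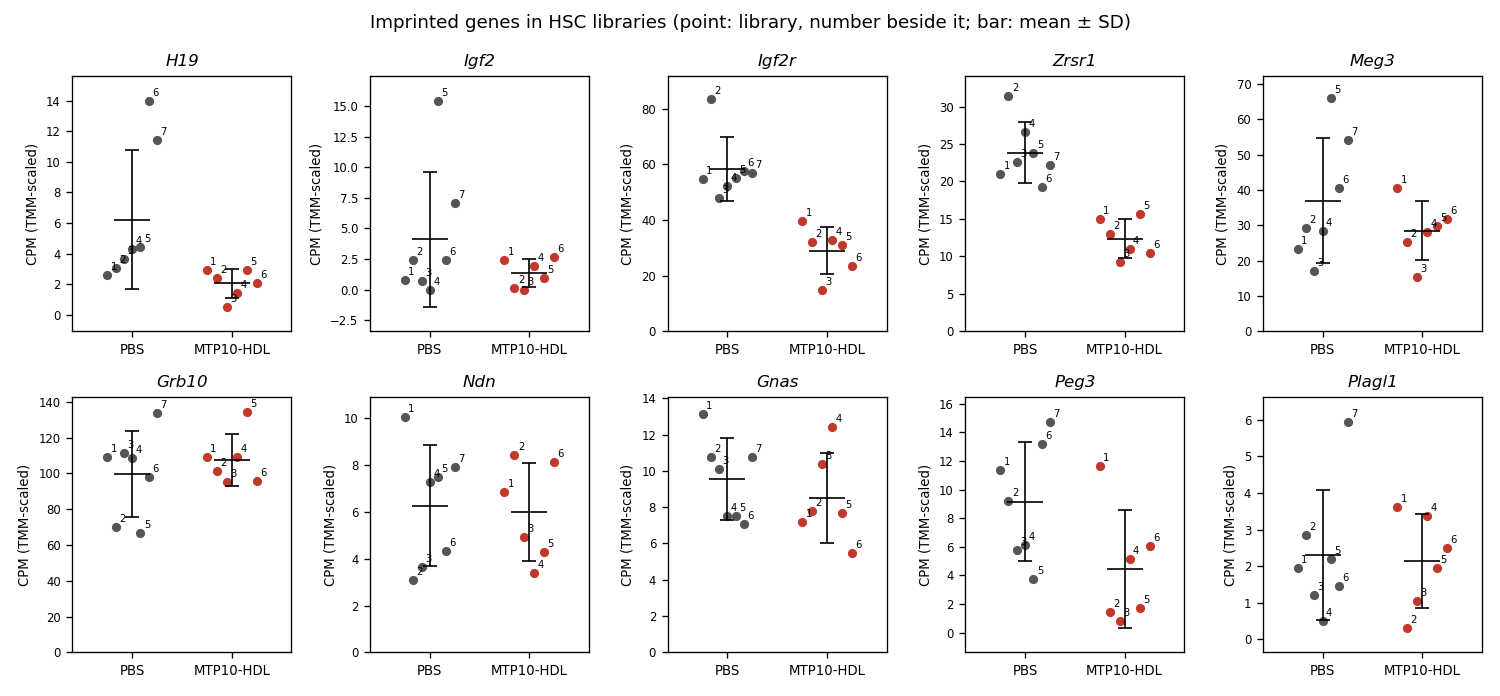
Level of each imprinted gene (CPM, linear axis) in the 7 PBS and 6 MTP10-HDL HSC libraries; each point is a library with its number and the bars give the mean and SD. Igf2r and Zrsr1 show 2 groups that do not overlap, the highest H19 points are PBS 6 and PBS 7 and the highest Igf2 point is PBS 5, and the Grb10 groups overlap.

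Igf2r encodes the cation-independent mannose 6-phosphate receptor, which carries enzymes to lysosomes and clears IGF2 from the cell surface. Its lowest, median and highest PBS levels were 47.9, 54.9 and 83.5 CPM, and with MTP10-HDL they were 15.0, 31.6 and 39.5 CPM. All 6 treated libraries were below all 7 PBS libraries, a pattern that 0.168% of all tested genes showed. The means were 58.2 ± 11.6 (SD, n = 7) and 29.0 ± 8.53 CPM (n = 6), a log2 fold change of -1.01 (SE 0.20). The highest level belonged to PBS 2, the library rich in immunoglobulin; without it the log2 fold change was -0.89.

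Zrsr1 is a paternally expressed, retroposed relative of a splicing factor that recognises the 3′ splice site. PBS libraries ran from 19.3 over a median of 22.7 to 31.4 CPM, and treated libraries from 9.30 over 11.98 to 15.6 CPM. Here too the groups did not overlap. The means of 23.9 ± 4.04 and 12.4 ± 2.55 CPM correspond to a log2 fold change of -0.94 (SE 0.19). Commd1, the gene that encloses it, was at 14.5 ± 2.25 and 13.9 ± 3.27 CPM (log2 fold change -0.05, SE 0.21), and its groups overlapped over most of their range.

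H19 was scarce, with 326 counts in all 13 HSC libraries together. Its PBS levels were 2.60, 4.27 and 14.0 CPM (lowest, median, highest) and its treated levels 0.531, 2.25 and 2.93 CPM. PBS 6 (14.0 CPM) and PBS 7 (11.4 CPM) stood above the other 5 PBS libraries, of which the highest was at 4.41 CPM. The lowest PBS library overlapped 2 of the 6 treated ones. The log2 fold change was -1.59 (SE 0.52), and -0.81 without PBS 6 and PBS 7 together. Markers of stroma and endothelium, 9 genes, summed to 32.3 CPM in PBS 6, their lowest value in any HSC library, and to 72.7 CPM in PBS 7. Over all libraries they ran from 32.3 to 222 CPM with PBS and from 51.9 to 62.7 CPM with MTP10-HDL. The sum joins genes of opposite direction, 2 higher and 5 lower of the 7 tested. Mean Pdgfrb was 16.6 CPM with PBS and 29.5 CPM treated, and mean Col1a1 26.1 and 3.02 CPM. A link to H19 was not tested.

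Igf2, the ligand of the pathway, was scarcer still, with 189 counts, and at 0 in PBS 4 and MTP10-HDL 3. A library with 0 counts allows up to 3 counts, or 0.376 CPM and 0.398 CPM in these, for counting error only. PBS levels were 0, 2.41 and 15.4 CPM and treated levels 0, 1.47 and 2.66 CPM, so the groups overlapped over the whole treated range. PBS 5 alone held 15.4 CPM and PBS 7 7.05 CPM. The log2 fold change of -1.58 (SE 0.99) became -0.69 without PBS 5 and 0.11 without PBS 5 and PBS 7, the 2 shallowest libraries. PBS 5 also carried the highest summed B cell marker level, 390 CPM, against 36.3 to 307 CPM in the other PBS libraries. Its neutrophil marker sum (3021 CPM) was the highest of the PBS libraries too, and its immunoglobulin share was 1.03%. PBS 7 held 64.3 CPM of B cell markers, and PBS 2, with 307 CPM of them, held 2.42 CPM of Igf2. A link of Igf2 to these markers was not tested.

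Peg3, a paternally expressed zinc finger gene linked to stem and progenitor cell states, ran from 3.75 over 9.23 to 14.8 CPM with PBS and from 0.797 over 3.43 to 11.7 CPM with MTP10-HDL. In 3 treated libraries Peg3 lay below every PBS library, but MTP10-HDL 1 was at 11.7 CPM, within the upper PBS range. The log2 fold change was -1.04 (SE 0.54).

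The other members overlapped broadly between the HSC groups. Meg3, a maternally expressed long non-coding RNA of the Dlk1 region, was at 17.1, 29.2 and 66.2 CPM with PBS (lowest, median, highest) and at 15.3, 29.1 and 40.7 CPM with MTP10-HDL, with nearly equal medians and a log2 fold change of -0.37 (SE 0.29). Grb10, an adaptor that dampens insulin and IGF1 receptor signalling, was at 66.6, 109 and 134 CPM and at 95.4, 105 and 135 CPM (0.11, SE 0.16). Ndn, which encodes the growth suppressor necdin, was at 3.08, 7.28 and 10.1 CPM and at 3.37, 5.89 and 8.42 CPM (-0.06, SE 0.36). For Gnas, the stimulatory G protein subunit, the values were 7.08, 10.1 and 13.2 CPM and 5.46, 7.74 and 12.4 CPM (-0.17, SE 0.26). Plagl1, the zinc finger factor known for regulating other genes of this network, was at 0.502, 1.95 and 5.94 CPM and at 0.324, 2.23 and 3.604 CPM (-0.09, SE 0.61). In each of these 5 genes some treated libraries were above and some below the PBS median.

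HSC libraries fell into 3 technical groups that each hold both treatments: the 4 with the fewest detected genes, the 4 with the highest ribosomal RNA share among the others, and the remaining 5. Igf2r differed by -1.26, -0.81 and -1.06 on the log2 scale within these, Zrsr1 by -1.08, -1.04 and -0.75, and H19 by -1.25, -0.63 and -1.73. These values restate the contrast that chose the genes and are given as a description. Igf2 differed by -0.61, 0.57 and -1.79, Meg3 by -0.38, 0.59 and -0.76, and Peg3 by -2.62, 0.09 and -1.38, so that each was above 0 in the group of highest ribosomal RNA and below 0 in the others; Ndn and Plagl1 did the same. Erythroid markers moved with treatment as well, from 116 to 241 CPM summed over 7 genes with PBS to 49.3 to 112 CPM with MTP10-HDL. The 8 B cell markers summed to 36.3 to 390 CPM with PBS and to 39.1 to 95.6 CPM with MTP10-HDL, so the groups overlapped over the whole treated range. The part of both marker lists in the lower values was not tested.

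MPPs gave a comparison that had no part in choosing the genes. Of the members 8 passed the filter on low counts; Igf2 (1 count in all 5 libraries) and Plagl1 (20 counts) did not. None of the 8 passed an FDR of 0.05 in edgeR's quasi-likelihood test (smallest adjusted p = 0.787), and neither did any of the 15449 genes tested (0%), of which 963 (6.23%) had an unadjusted p under 0.05; limma voom called no gene and DESeq2 called 181, no member among them. All treated libraries lay below both PBS libraries for 4 of the 8, Zrsr1, Grb10, Ndn and Peg3, against 12.3% of all genes tested, and 24.3% of all genes had groups that did not overlap in either direction. The fitted fold change was below 0 for 7 of the 8 (48.0% of all genes), which include H19 and Peg3 with 37 and 63 counts, and nothing is read from either count.

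**Figure D2:**
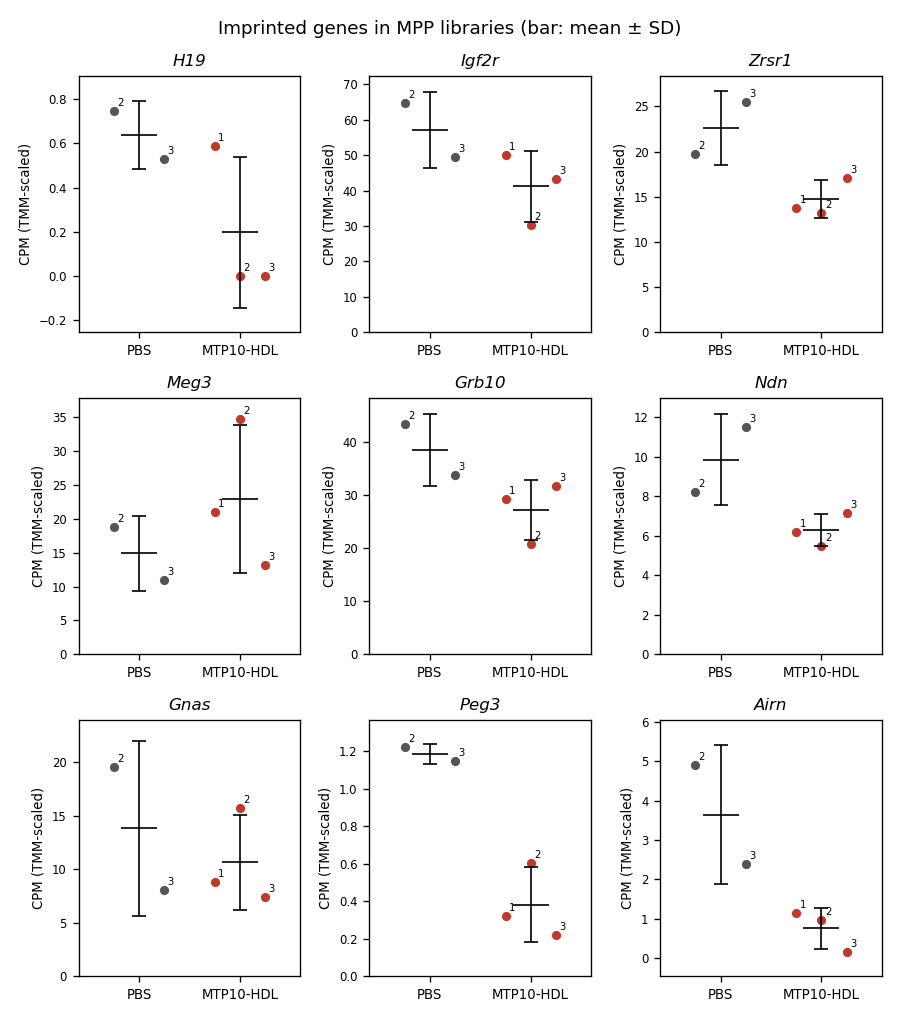
Levels (CPM, linear axis) in the 2 PBS and 3 MTP10-HDL MPP libraries of the 8 imprinted genes that passed the filter and of Airn, with library numbers, means and SD. Zrsr1, Grb10, Ndn, Peg3 and Airn have all treated points below both PBS points, whereas Meg3 and Gnas overlap.

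Zrsr1 was at 19.7 and 25.5 CPM in PBS 2 and PBS 3 of the MPPs and at 13.8, 13.2 and 17.1 CPM in MTP10-HDL 1, 2 and 3. The groups did not overlap, and the means were 22.6 ± 4.07 (SD, n = 2) and 14.7 ± 2.10 CPM (n = 3). Its log2 fold change of -0.62 (SE 0.26) had the smallest p among the members (edgeR unadjusted p = 0.0434, adjusted p = 0.787), so it did not pass the correction. Of all genes tested, 4.06% were lower and 2.17% higher at an unadjusted p under 0.05.

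Igf2r was at 64.7 and 49.6 CPM with PBS and at 50.0, 30.2 and 43.4 CPM with MTP10-HDL. MTP10-HDL 1 lay just above PBS 3, so the groups overlapped by 1 library. The log2 fold change was -0.47 (SE 0.27, edgeR adjusted p = 0.853). Whether this differs from the HSC value was not tested, since the HSC contrast chose the gene.

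H19 was close to absent in MPPs. It had 11 and 6 counts with PBS (0.749 and 0.531 CPM), 20 counts in MTP10-HDL 1 (0.590 CPM) and 0 in MTP10-HDL 2 and 3, where 3 counts would be 0.106 and 0.165 CPM. Its log2 fold change of -1.61 (SE 1.76, edgeR adjusted p = 0.925) rests on 37 counts. Peg3, with 63 counts, was at 1.22 and 1.15 CPM with PBS and at 0.324, 0.603 and 0.220 CPM with MTP10-HDL, which fitted as -1.61 on the log2 scale (SE 0.98, edgeR adjusted p = 0.866). Genes this scarce pass the filter through the group where they are high, so nothing is read from the direction of H19 and Peg3.

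Ndn was at 8.23 and 11.5 CPM with PBS and at 6.22, 5.50 and 7.15 CPM with MTP10-HDL in MPPs (-0.65 on the log2 scale, SE 0.34, edgeR adjusted p = 0.826). Grb10 was at 43.3 and 33.7 CPM and at 29.2, 20.7 and 31.6 CPM (-0.51, SE 0.26, edgeR adjusted p = 0.819). The groups of both did not overlap, as was the case in the same direction for 12.3% of all genes at this number of libraries.

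Meg3 was the only tested member with a fold change above 0 in MPPs, at 18.8 and 10.97 CPM with PBS and at 21.0, 34.8 and 13.2 CPM with MTP10-HDL (0.62, SE 0.44, edgeR adjusted p = 0.875). Leaving out MTP10-HDL 2 gave 0.19, leaving out PBS 3 gave 0.29 and leaving out PBS 2 gave 1.05. Gnas was at 19.6 and 8.05 CPM and at 8.85, 15.7 and 7.37 CPM (-0.38, SE 0.47, edgeR adjusted p = 0.939), and without PBS 2 its fold change turned to 0.39. Meg3 and Gnas overlapped between the groups.

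**Figure D3:**
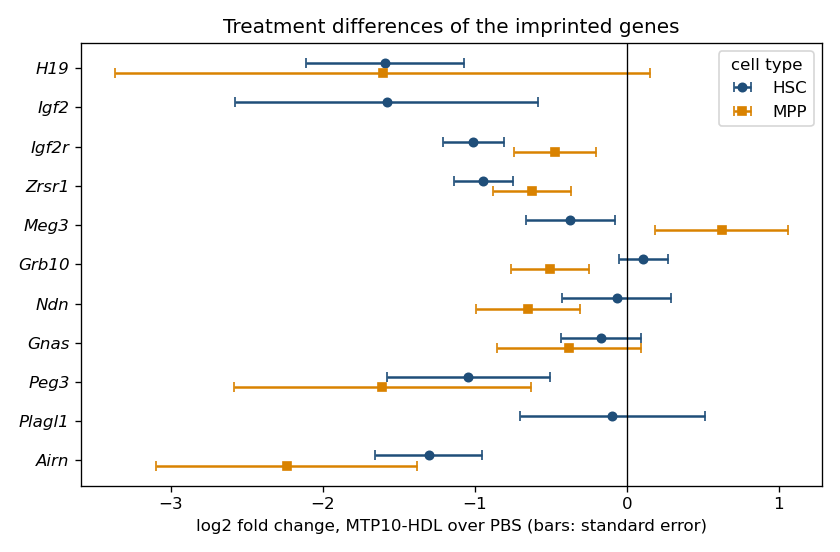
Log2 fold change of MTP10-HDL over PBS with its standard error for each imprinted gene and for Airn, in HSCs (circles) and MPPs (squares); Igf2 and Plagl1 have no MPP point because they did not pass the filter. Igf2r, Zrsr1, H19, Peg3, Ndn, Gnas and Airn lie to the left of 0 in both cell types, whereas Meg3 and Grb10 lie on opposite sides of it.

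Airn, the paternally expressed non-coding RNA that is transcribed across the start of Igf2r and silences it on that copy, is not a member but overlaps one. It was at 7.25, 14.1 and 21.1 CPM in PBS HSCs (lowest, median, highest) and at 2.27, 4.90 and 9.16 CPM in treated HSCs. All 6 treated libraries lay below the PBS median and 4 lay below every PBS library. The log2 fold change was -1.30 (SE 0.35, edgeR unadjusted p = 0.00178, adjusted p = 0.321), which did not pass, while DESeq2 called it (log2 fold change -1.32, adjusted p = 0.0389). In MPPs it was at 4.90 and 2.39 CPM with PBS and at 1.15, 0.958 and 0.165 CPM with MTP10-HDL, with no overlap (log2 fold change -2.24, SE 0.86, edgeR adjusted p = 0.762). The fitted fold changes of Airn and Igf2r, which come from opposite parental copies, were below 0 in both cell types, with the limit on strand given above. The HSC contrast chose Igf2r, so nothing is read from this shared direction.

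The other overlapping or adjoining transcripts did not share 1 direction. Usp29, which adjoins Peg3 and is read from the same paternal copy, was at 0.878, 4.53 and 10.1 CPM in PBS HSCs (lowest, median, highest) and at 0.648, 1.98 and 3.78 CPM in treated HSCs, a log2 difference of -1.17 (SE 0.57) close to the -1.04 of Peg3. All 6 treated libraries were below the PBS median of Usp29, and 1 was below every PBS library. Rian and Mirg, long non-coding RNAs downstream of Meg3, differed by 0.10 (SE 0.28) and -0.16 (SE 0.61) in HSCs, and Rian by 0.31 (SE 0.55, edgeR adjusted p = 0.962) in MPPs. Commd1 differed by 0.45 (SE 0.52, edgeR adjusted p = 0.931) in MPPs, where Zrsr1 differed by -0.62. Usp29 (3 counts) and Mirg (18 counts) did not pass the filter in MPPs, and Ins2 and Igf2os, which lie beside or across Igf2, did not pass in either table.

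Among 60 further imprinted genes, 59 were in the tables and 42 passed the filter in HSCs. There, 13 were higher and 29 lower, where 52.3% of all genes tested were below 0. None passed an FDR of 0.05 in edgeR, and the median log2 fold change was -0.17 (all genes, -0.02). There were 4 lower and 2 higher at an unadjusted p under 0.05, against 4.47% and 4.36% of all genes tested, and nothing is read from these counts. The lower ones, named after their values were seen, were Airn, Kcnq1ot1, Ube3a and Rtl1, and the higher ones were the organic cation transporter gene Slc22a3 and Slc22a18. Kcnq1ot1, the paternally expressed silencing RNA of the Kcnq1 region and the most abundant gene of this list, was at 594 ± 124 CPM (n = 7) and 428 ± 52.3 CPM (n = 6), which is -0.47 as a log2 fold change (SE 0.14, edgeR adjusted p = 0.365). Of the other abundant members, Ago2, a protein of microRNA silencing, was at -0.19 (SE 0.12), the surface protein gene Cd81 at 0.02 (SE 0.25) and the receptor kinase gene Axl at -0.50 (SE 0.72). Within the list, 11 of the 13 genes most often placed in the same network were tested, 3 higher and 8 lower. Cdkn1c, the cell cycle inhibitor that keeps HSCs out of division, was at 9.36 ± 3.46 and 9.39 ± 3.37 CPM (0.01, SE 0.32), Gatm at 0.15 (SE 0.20), Sgce at -0.15 (SE 0.31) and Ppp1r9a at -0.21 (SE 0.16).

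In MPPs 38 of the 59 were tested, with 13 higher and 25 lower, where 48.0% of all genes tested were below 0. None passed the FDR, and the median was -0.18 (all genes, 0.02). Airn and Axl were the 2 lower at an unadjusted p under 0.05, and none was higher. Over all genes tested 4.06% were lower and 2.17% higher at that threshold, so nothing is read from this count. The most abundant were H13, a signal peptide peptidase gene, at 0.01 (SE 0.21), Cd81 at -0.28 (SE 0.22), Tspan32 at -0.03 (SE 0.28) and Peg13 at -0.06 (SE 0.31). Kcnq1ot1 was at 90.9 ± 72.9 CPM (n = 2) and 48.7 ± 17.1 CPM (n = 3), which is -0.90 on the log2 scale (SE 0.52, edgeR adjusted p = 0.857).

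A list of insulin-like growth factor genes, which holds a ligand, receptors, binding proteins and signalling genes, showed no common direction in HSCs. Of 18 genes 15 were tested in HSCs, 7 higher and 8 lower with a median of -0.01, and none passed. For the IGF1 receptor gene Igf1r the means were 314 ± 71.4 CPM in the PBS group and 313 ± 57.1 CPM in the treated one, a difference of -0.01 on the log2 scale (SE 0.16). Pik3r1, a subunit of the lipid kinase below the receptor, was at 0.06 (SE 0.11) and the quiescence factor gene Foxo3 at 0.09 (SE 0.15). In MPPs 15 were tested, 5 higher and 10 lower with a median of -0.14, and none passed. Of all genes tested there, 48.0% were below 0, and nothing is read from this count.

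Genes that set or protect imprints were tested for 12 of 13 in each table, and none passed. In HSCs 9 were higher and 3 lower, with a median of 0.10, where 52.3% of all genes tested were below 0. Trim28, the cofactor that ZFP57 brings to imprinted regions, was at 170 ± 39.6 and 219 ± 37.0 CPM (0.36, SE 0.17, edgeR adjusted p = 0.562), and Dnmt1, the methyltransferase that copies methylation at replication, at 358 ± 47.3 and 411 ± 96.4 CPM (0.20, SE 0.15, edgeR adjusted p = 0.695). Ctcf, the insulator protein bound between H19 and Igf2, was at 0.08 (SE 0.12) and Tet3, an enzyme of methylation removal, at 0.06 (SE 0.13). In MPPs 6 were higher and 6 lower, with a median of -0.04.

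How far the members vary together from library to library was asked with the treatment removed: log2 CPM was centred on each treatment group, which the choice of members did not use. Pearson's r was above 0 for 31 of 45 pairs over the 13 HSC libraries, with a median of 0.12, and no pair passed a Benjamini-Hochberg adjusted p of 0.05 by Pearson's r. Igf2 and Meg3 had the highest correlation (r = 0.82, permutation p = 0.00169, adjusted p = 0.0655; rho = 0.83, permutation p = 0.00085, adjusted p = 0.0191), with r = 0.87 without the 2 libraries farthest from the Igf2 median. Igf2 and Plagl1 followed (r = 0.78, permutation p = 0.00291, adjusted p = 0.0655; rho = 0.85, permutation p = 0.0008, adjusted p = 0.0191), with r = 0.84 without the same 2. By rank, then, both pairs passed. By Pearson's r, Igf2 and Meg3 passed without PBS 3 (permutation, adjusted p = 0.0337) or without PBS 4 (permutation, adjusted p = 0.00225). The latter is the smallest value that the resamples used there allow for a single pair. Without PBS 5 the pairs Igf2 and Plagl1 (permutation, adjusted p = 0.0191), Igf2 and Peg3 (0.0191), Meg3 and Peg3 (0.0277) and H19 and Meg3 (0.0377) passed. When the technical groups were removed too, r was 0.58 (permutation p = 0.0899) for Igf2 and Meg3 and 0.53 (permutation p = 0.266) for Igf2 and Plagl1, with an adjusted permutation p of 0.799 for each. These permutations ran inside sets of 2 or 3 libraries, which allow few arrangements. A lone pair could therefore not reach an adjusted p of 0.05, and nothing is read from these p-values. The lowest levels of Igf2 (PBS 4 and MTP10-HDL 3) and of Plagl1 (PBS 4 and MTP10-HDL 2) were all in libraries with the fewest detected genes.

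**Figure D4:**
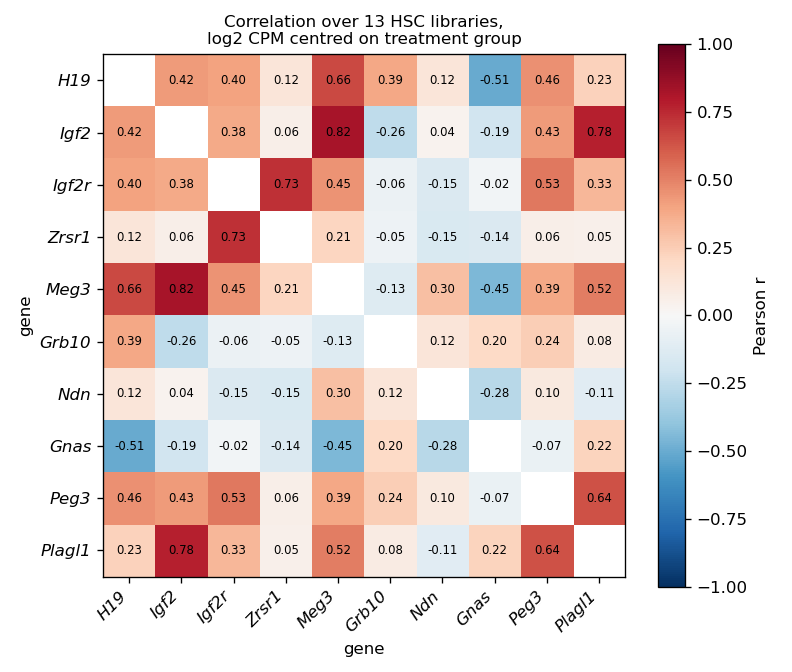
Pearson correlation of log2 CPM, centred on treatment group, for the 45 pairs of imprinted genes over 13 HSC libraries (color scale from -1 to 1, r printed in each cell). Igf2 with Meg3 (0.82), Igf2 with Plagl1 (0.78) and Igf2r with Zrsr1 (0.73) are the 3 highest, and most cells of Grb10, Ndn and Gnas lie near or below 0.

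Igf2r and Zrsr1, which lie on different chromosomes, were the third pair (r = 0.73, permutation p = 0.00747, adjusted p = 0.112; rho = 0.60, permutation p = 0.049, adjusted p = 0.367). Without MTP10-HDL 3 and PBS 2, the lowest and highest libraries for Igf2r, r was 0.50. With the technical groups removed too, r was 0.76 (permutation p = 0.120, adjusted p = 0.799). The highest r was then that of Zrsr1 and Meg3 (r = 0.79, permutation p = 0.0261, adjusted p = 0.799). H19 and Igf2, the neighbours, had an r of 0.42 (permutation p = 0.187, adjusted p = 0.525; rho = 0.41, permutation p = 0.195, adjusted p = 0.674), and 0.37 without PBS 6 and PBS 7. With the technical groups removed too, its sign turned (r = -0.48, permutation p = 0.192, adjusted p = 0.799), under the limit on permutations given above. Over all libraries, with treatment alone removed, the pair of neighbours was not separated from 0 at this depth. H19 varied more closely with Meg3 (r = 0.66, permutation p = 0.024, adjusted p = 0.230; rho = 0.76, permutation p = 0.00686, adjusted p = 0.103; r = 0.63 without PBS 6 and PBS 7), and r was 0.15 when the technical groups were removed. The lowest correlation was that of H19 and Gnas (r = -0.51, permutation p = 0.0879, adjusted p = 0.483; rho = -0.56, permutation p = 0.0622, adjusted p = 0.400), with r = -0.61 without PBS 6 and PBS 7. H19 and Igf2r had an r of 0.40 (permutation p = 0.14, adjusted p = 0.483; rho = 0.34, permutation p = 0.275, adjusted p = 0.773). Their r was 0.57 without PBS 6 and PBS 7, and leaving out MTP10-HDL 3 alone brought it to -0.02.

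Over the whole HSC table, the 5 genes with a pattern most like that of H19, among 9697 genes with a mean of at least 10 CPM, were 1500015A07Rik, Tatdn3, Il15, B3gat3 and Vezt. Their r with H19 over the 13 libraries, centred in the same way, was 0.94, 0.89, 0.88, 0.85 and 0.85, and their rho was 0.95, 0.82, 0.86, 0.90 and 0.85. These are the extremes of many comparisons and are given as a description with no test. None of them is an imprinted gene of the lists used here.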

How the data were processed

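The authors deposited raw read counts per Ensembl gene, 1 table for HSCs and 1 for MPPs. The tools named, per the submitters' processing notes, are CASAVA 1.8.2 with STAR 2.5.2b for the HSC samples, and STAR 2.7.2a, DESeq2 1.24 and R 3.6.1 for the MPP samples, all on mm10. No counting tool, annotation release or strand setting is given in the sources used here. HSC PBS columns are numbered 1 to 7 while the labels run to 8, so they were used as a group under the numbers of the table. The 12 ATAC-seq samples were not used here.

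Tables were fitted separately with edgeR 4.0.16 under R 4.3.3: filterByExpr, TMM scaling, its quasi-likelihood F test, p-values adjusted over all genes tested by Benjamini-Hochberg, and an FDR threshold of 0.05. The fit was tested on simulated data. Fold changes are MTP10-HDL over PBS. Log2 CPM used a prior count of 2. Permutations were two-sided and ran within treatment groups, or within treatment and technical groups together where both were removed. They used 100000 resamples, and fewer where 1 library was left out. Alternatives used limma 3.58.1 and DESeq2 1.42.0. In edgeR, limma and DESeq2, p-values set the treatment difference against the spread between pools of mice. Permutation p-values test a correlation between genes over those pools. Replicate numbers are shared between groups, but the labels do not tie equal numbers to a shared day or litter.

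All 10 members are named whatever their values. From the other lists the rule named genes past the FDR, or else the 4 of highest mean CPM, besides genes overlapping a member and the 5 most like H19. A single gene among those this rule names is not reported here. Members and lists were chosen with earlier results of these data known. Promoter, microRNA and gene positions are from RefSeq tables of GRCm38.p6, matched by symbol.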

Additional observations from a re-analysis of the deposited data

Results flagged for a closer look

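In HSCs, 20 sets of values (10 genes in each of 2 groups) were searched for a library standing apart, by the gap to its nearest neighbour as a share of the range of its group; chance alone gives about 1 in 20. Igf2r in PBS 2 was at 83.5 CPM with the next PBS library at 57.7 CPM (gap ratio 0.724), and that library also held the most immunoglobulin counts, 19.8%. Grb10 in MTP10-HDL 5 was at 135 CPM with the next treated library at 109 CPM (gap ratio 0.643).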

How the results depend on the processing

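The log2 fold changes of H19, Igf2r, Zrsr1, Peg3 and Gnas in HSCs were below 0 under all 22 alternatives run, from -1.71 to -0.81 for H19, from -1.11 to -0.87 for Igf2r and from -1.02 to -0.86 for Zrsr1. Gnas ran from -0.30 to -0.06, against an SE of 0.26. These refits reuse the contrast that chose the members, so nothing is read from their direction. Leaving out PBS 7 and keeping only replicate numbers found in both groups, without a block, are the same HSC fit, counted separately. The number of members lower was 8 to 9 of 10 with any 1 library left out, and 5 without PBS 5 and PBS 7, the shallowest libraries, where Igf2 was at 0.11; this alternative and the one without PBS 6 and PBS 7 were added after seeing the data. No gene of the HSC table passed the FDR in edgeR or limma voom, while 85 passed in DESeq2, 44 passed in edgeR with no filter on low counts, and 0 to 1 with any 1 library left out, the 1 without MTP10-HDL 4. Among the further imprinted genes DESeq2 called 1 in HSCs, Airn (log2 fold change -1.32, adjusted p = 0.0389). In MPPs DESeq2 called 181 genes, edgeR with no filter 345, and edgeR with any 1 library left out 0 to 17, the 17 without PBS 3; no member and no further imprinted gene was among them under any alternative run. Gnas in MPPs reversed without PBS 2 and ran from -0.88 to 0.39 with any 1 library left out. With replicate number as a block edgeR called 43 MPP genes, against 0 for the same 4 libraries without the block, and 0 HSC genes. Same-numbered HSC libraries correlated from -0.19 to 0.19 and differently numbered ones from -0.28 to 0.26, so the numbers do not show a pairing there. In MPPs same-numbered libraries correlated at -0.17 and -0.03. The 2 PBS libraries, centred on their mean, are mirror images of each other, so these MPP values can neither show nor exclude a pairing. The number of pairs of members called by Pearson's r ran from 0 to 4 with any 1 HSC library left out: 1 without PBS 3 and without PBS 4, and 4 without PBS 5. The cause of these shifts was not tested. Depth limits the scarce members, of which Plagl1, Igf2 and H19 had the fewest HSC counts (165, 189 and 326), with 3 counts amounting to 0.367 to 0.662 CPM in HSC libraries, for counting error only.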
